A study of Mus musculus with 2 samples.

Results

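Kupffer-type resident macrophages were taken here as barcodes that carried transcripts of Cd5l, Clec4f and Fcna together with C1q, in 2 single-cell RNA libraries from mouse liver tumours. The rule kept barcodes with at least 200 genes, at most 20% mitochondrial UMIs (unique molecular identifiers, which count captured transcripts) and little keratin, meaning at most 1 UMI of Krt8 and Krt18 or under 0.1% of UMIs. Members were chosen by the measured UMIs of marker genes: they needed at least 2 UMIs over Cd5l, Clec4f and Fcna, at least 1 over C1qa, C1qb and C1qc, and 0 over Cd3d, Cd3e and Cd3g. The rule found 141 members among 17473 deposited barcodes. The shSrsf10 library held 7 of 7553 and the shCtrl library 134 of 9920. They were set against C1q macrophages, which met the same limits but had 0 UMIs of the 3 selecting genes, 147 in shSrsf10 and 320 in shCtrl.

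Both libraries are labelled as tumour tissue of Mus musculus with hepatocellular carcinoma. The shSrsf10 library carries the genotype label shSrsf10, a short hairpin RNA against the splicing factor gene Srsf10, and the shCtrl library, with a control hairpin, is labelled wild type. Strain, age, the number of animals and the cells that carry the hairpin are not given in the labels used here. The labels describe the preparation in conflicting ways, with a digestion and a sort of unstated gate in one place and a slow spin that removes hepatocytes in another, so the recovery of macrophages by either step is not known. There was 1 library per group, so no difference has a replicate check, no p-value is given, and library and hairpin cannot be told apart. All intervals are 95% intervals and cover counting error only.

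Kupffer cells are the macrophages that live inside the liver sinusoids. They are known for clearing bacteria, dying cells and old red cells from the blood, for recycling iron and for handling lipids, and they are seeded before birth and renewed mostly in place. Their identity in mice is known to depend on signals from the sinusoid and on the factors LXRα, ID1, ID3 and SPI-C. Cd5l encodes a secreted protein that binds lipids and supports macrophage survival. Clec4f encodes a C-type lectin receptor used as a Kupffer cell marker in mice, and Fcna encodes ficolin A, a secreted lectin that starts the lectin pathway of complement. Vsig4, a complement receptor for C3 fragments, and Folr2, a folate receptor, are further markers that the rule did not use.

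All 3 selecting genes were detected together in 40 of the 134 shCtrl members, and Vsig4 was detected in 32. The sequences just upstream of the 3 selecting genes and of Vsig4 are shown as those of marker genes. Each holds the 250 bases before the start of the gene, on the gene's strand, from RefSeq on GRCm38.p6. The Cd5l window is chr3:87357631-87357880 on the plus strand. Those of Clec4f (chr6:83656117-83656366), Fcna (chr2:25627975-25628224) and Vsig4 (chrX:96293439-96293688) are on the minus strand. Capitals mark GAGGAA, the core recognised by the macrophage factor PU.1, AGGTCA, an element of nuclear receptors, and TGCTGA, an element of MAF factors, on either strand.
Cd5l: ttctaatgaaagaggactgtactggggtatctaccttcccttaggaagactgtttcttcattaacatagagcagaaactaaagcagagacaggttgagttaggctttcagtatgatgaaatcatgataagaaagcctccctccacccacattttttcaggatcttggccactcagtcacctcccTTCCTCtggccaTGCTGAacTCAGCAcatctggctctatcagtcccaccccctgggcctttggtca
Clec4f: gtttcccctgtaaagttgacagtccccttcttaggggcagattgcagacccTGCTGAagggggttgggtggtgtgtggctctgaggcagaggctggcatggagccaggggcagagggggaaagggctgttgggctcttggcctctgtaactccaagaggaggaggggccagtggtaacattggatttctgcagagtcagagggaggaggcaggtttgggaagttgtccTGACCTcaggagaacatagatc
Fcna: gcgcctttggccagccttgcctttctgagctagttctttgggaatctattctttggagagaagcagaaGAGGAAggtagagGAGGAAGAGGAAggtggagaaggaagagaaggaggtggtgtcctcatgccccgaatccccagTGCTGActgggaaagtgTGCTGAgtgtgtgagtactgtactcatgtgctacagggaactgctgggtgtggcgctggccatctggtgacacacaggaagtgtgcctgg
Vsig4: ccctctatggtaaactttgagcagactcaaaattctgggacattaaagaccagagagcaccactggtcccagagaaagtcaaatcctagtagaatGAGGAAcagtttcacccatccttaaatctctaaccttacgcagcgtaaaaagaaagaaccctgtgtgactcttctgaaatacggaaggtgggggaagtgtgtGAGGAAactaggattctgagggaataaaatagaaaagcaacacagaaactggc
GAGGAA was found 1 time in the Cd5l window, 3 times in Fcna, 2 times in Vsig4 and 0 times in Clec4f. TGCTGA was found 2 times in Cd5l, 2 times in Fcna and 1 time in Clec4f, and AGGTCA 1 time, in Clec4f. Among 32851 promoter windows of the same length, 23.3% held GAGGAA, 14.0% AGGTCA and 16.1% TGCTGA. A match describes letters only and shows no binding.

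The summed depth behind the members was 35484 UMIs in shSrsf10 and 315712 in shCtrl, and that behind the C1q macrophages was 535690 in shSrsf10 and 999931 in shCtrl. Median depth per barcode was 5432 UMIs in the shSrsf10 members and 1932 in the shCtrl members. It was 2801 and 1733 UMIs in the C1q macrophages of shSrsf10 and shCtrl. No member's barcode occurred in both libraries, among 67 barcodes that did. Of the members in shCtrl, 3 (2.24%) had a single C1q UMI, against 87 (27.2%) of the C1q macrophages, which therefore hold more barcodes with weak evidence of being macrophages. For that reason values with at least 3 C1q UMIs required in both populations, 124 members and 213 C1q macrophages, are given beside each list whose counts they change and beside each gene named with its ratio that they move across 2-fold.

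The 3 selecting genes were unevenly spread over the 134 shCtrl members. Cd5l was detected in 100 members (74.6%), Fcna in 101 (75.4%) and Clec4f in 64 (47.8%). All 3 were detected in 40 members, 2 of them in 51 and 1 in 43. Of those 43, 31 had Fcna alone, 11 Cd5l alone and 1 Clec4f alone. The summed count of the 3 genes had a median of 6 UMIs and ran between 2 and 52. At the edge of the rule, 24 members had exactly 2 UMIs, and 44 C1q barcodes just outside it had 1.

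**Figure D1:**
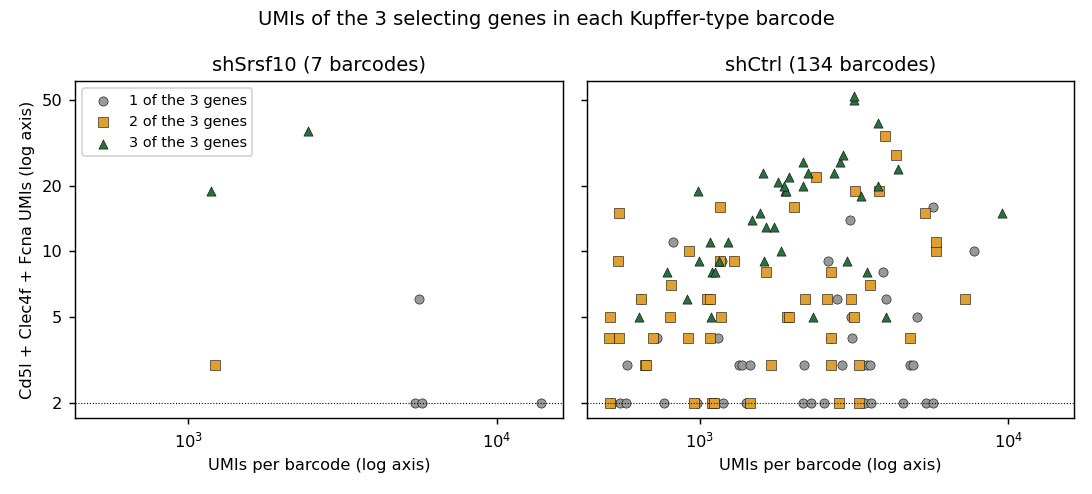
UMIs of Cd5l, Clec4f and Fcna summed in each Kupffer-type barcode (y axis, log scale) against all UMIs of that barcode (x axis, log scale), with shSrsf10 on the left and shCtrl on the right; symbols give how many of the 3 genes were detected and the dotted line the limit of 2 UMIs. Of the 7 shSrsf10 members 3 lie on the limit, as do 24 of the 134 shCtrl members.

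Among the members, UMIs of Vsig4, Folr2, Timd4 and Marco lay only in those with Cd5l or Clec4f. By these genes the Kupffer label did not hold for the members with Fcna alone. Vsig4 had 72 UMIs in the shCtrl members and 0 in the C1q macrophages. All 72 came from the 103 members with Cd5l or Clec4f, where 31.1% of barcodes had a Vsig4 UMI. Folr2 had 101 UMIs in the members, again all in those 103, of which 41.7% had one. Most of these Vsig4 and Folr2 UMIs came from the 64 members with Clec4f. Members with Cd5l and no Clec4f had few of them, and the 11 with Cd5l alone had no Vsig4 UMI. The 31 members with Fcna alone had 0 UMIs of Vsig4, Folr2, Timd4 and Marco, which at their depth allows up to 39.1 CPM (counts per 1000000 UMIs) of each. They were not shallow, with a median of 3066 UMIs and 41 C1q UMIs per barcode. Other genes of the Kupffer marker list were detected in them. Il18bp, a secreted trap for interleukin 18, was at 286 CPM (188 to 416) in the Fcna-alone members and 64.0 CPM (49.3 to 81.7) in the C1q macrophages. Adgre1, which encodes F4/80, was at 222 CPM (138 to 340.0) in the Fcna-alone members and 66.0 CPM (51.0 to 84.0) in the C1q macrophages. Clec1b, a C-type lectin receptor, was at 159 CPM against 80.0 and the kinase gene Dmpk at 31.8 CPM against 8.0, with intervals that overlapped. C1q macrophages with at least 3 C1q UMIs stood nearer for 3 of these genes, at 109 CPM of Il18bp, 110 of Adgre1 and 135 of Clec1b. For Dmpk they stood at 7.0 CPM. C1q macrophages carried all of these genes too, so higher levels of some of them do not settle the Kupffer label for the Fcna-alone members.

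The levels of Vsig4, Folr2 and Timd4 followed the number of selecting genes detected, as did Dmpk and Clec1b, while Marco, Adgre1 and Il18bp did not fall step by step. Vsig4 was at 660 CPM (503.6 to 850) with all 3 genes, 100.1 CPM (50.0 to 179) with 2, 8.70 CPM (0.220 to 48.5) with 1 and 0 CPM (up to 3.69) in C1q macrophages. Folr2 was at 924, 137, 17.4 and 4.0 CPM in the same order. Timd4, a receptor for phosphatidylserine on dying cells, was at 187, 72.8, 17.4 and 3.0 CPM. The intervals of Vsig4 and Folr2 with 3 genes and with 2 did not overlap, while those of Timd4 did. Dmpk was at 264, 127, 26.1 and 8.0 CPM, and Clec1b at 385, 255, 148 and 80.0 CPM. Marco, a scavenger receptor for bacteria, was at 275 CPM with 3 genes and 291 CPM with 2. Adgre1 was at 187, 282 and 217 CPM with 3, 2 and 1 genes, and Il18bp at 539, 228 and 261 CPM.

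Apoc1, a lipoprotein component induced by LXR, fell off in the same way. It was at 3740 CPM with 3 genes, 1001 CPM with 2, 200.1 CPM with 1 and 162 CPM in C1q macrophages. Fabp7, a fatty acid binding protein, was at 561, 137, 52.2 and 3.0 CPM. Id3, a regulator needed for Kupffer identity in mice, was at 1210 CPM with 3 genes, 765 with 2 and 174 with 1, the last close to the 206 CPM of C1q macrophages.

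Csf1r and Slc40a1 fell in the same order, but with smaller steps among the members than between the members and the C1q macrophages. Csf1r, the receptor for the growth factor CSF1, was at 781 CPM with 3 genes, 710.1 with 2 and 687 with 1, all above the 216 CPM of C1q macrophages. Slc40a1, which encodes the iron exporter ferroportin, was at 396, 382 and 278 CPM, against 44.0 CPM in C1q macrophages. Vcam1, an adhesion molecule, was lowest of the members where all 3 genes were present, at 319 CPM (214 to 458), with 1293 CPM (1089 to 1524) for 2 genes, 905 CPM (739 to 1096) for 1 and 128 CPM (107 to 152) in C1q macrophages. H2-Aa, an MHC class II chain, ran the other way from Vsig4, at 1727, 2512, 3584 and 4060 CPM.

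**Figure D2:**
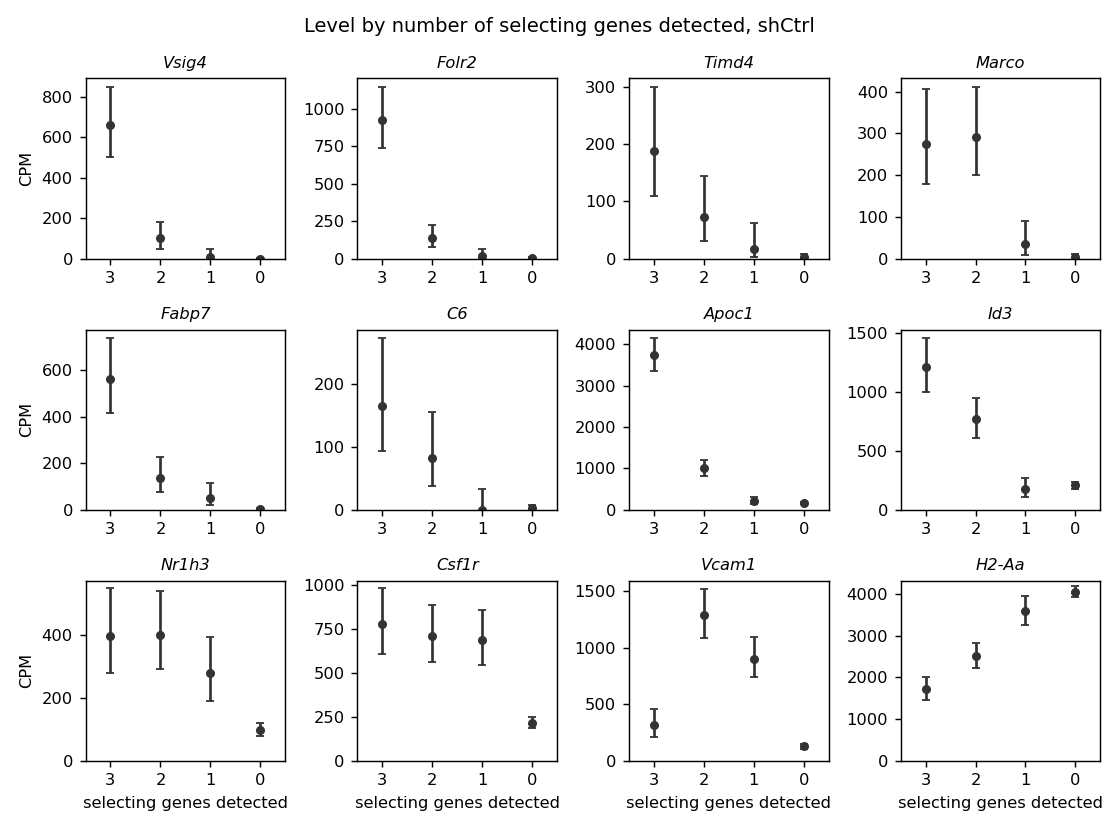
Level (CPM, y axes, linear and starting at 0) of 12 genes in shCtrl barcodes with 3, 2, 1 or 0 of the selecting genes detected (x axes; 40, 51, 43 and 320 barcodes), with exact Poisson 95% bars. The groups with 3, 2 and 1 genes hold members only, and the 44 barcodes with a single UMI of these genes are left out. Vsig4, Folr2 and Apoc1 are highest with all 3 genes, and Csf1r stays between 687 and 781 CPM among the members. Vcam1 peaks with 2 genes and H2-Aa is highest with 0.

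After each barcode was thinned to 1000 UMIs, shares of barcodes with a transcript kept the same contrast in shCtrl. Vsig4 was seen in 13.3% of 105 members and in 0 of 234 C1q macrophages, which allows up to 1.28%. Keratin-high barcodes, which should lack it, gave 0.0140% of 7121. Folr2 was seen in 24.8% of members, 0.427% of C1q macrophages and 0.0281% of keratin-high barcodes. Median depth before thinning was 2607 UMIs in these members, 2640 in the C1q macrophages and 16986 in the keratin-high barcodes. Without thinning, Vsig4 was in 32 of 134 members (23.9%) and Folr2 in 43 (32.1%), with 4 of 320 C1q macrophages (1.25%) for Folr2.

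Over 4615 genes with at least 30 UMIs in the shCtrl members and C1q macrophages together, 453 (9.82%) were at least 2-fold higher in the members and 484 (10.5%) at least 2-fold lower. The median log2 ratio was -0.01. With at least 3 C1q UMIs 3242 genes had enough UMIs, of which 6.82% were at least 2-fold higher and 4.84% at least 2-fold lower. Counts in the shCtrl gene lists below are to be set against 9.82% and 10.5%. Counts with at least 3 C1q UMIs are to be set against 6.82% and 4.84%. Beside the selecting genes, the members were highest in Folr2, with 320 CPM against 4.0 in C1q macrophages (log2 ratio 6.32, 4.92 to 8.22), Fabp7 and Marco. Vsig4 stood at 228 CPM against 0 UMIs, at least 76.0-fold higher when 3 UMIs over the C1q macrophages are taken as the floor. The members were lowest in Mgl2, a galactose lectin of monocyte-derived macrophages and dendritic cells, with 1 UMI against 111 (log2 ratio -5.13, -10.45 to -2.62).

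The 12 genes with the highest ratios were Folr2, Fabp7, Marco, Ctla2b, Dmpk, St3gal5, Hpgd, Apoc1, Slc40a1, Mrc1, Vcam1 and Epb41l3. Marco was at 193 CPM against 4.0, although 19.7% of its UMIs came from 1 barcode. Hpgd, which breaks down prostaglandins, was at 130 CPM against 14.0 (log2 ratio 3.21). St3gal5, the enzyme that makes the ganglioside GM3, was at 114 CPM against 11.0. Mrc1, the mannose receptor, was at 165 CPM against 24.0 (log2 ratio 2.78). All 12 also stayed above 2-fold with at least 3 C1q UMIs, between 2.12 for Vcam1 and 5.55 for Folr2 on the log2 scale. Reads of Ctla2b may be shared with its near-identical neighbour Ctla2a.

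The 12 genes with the lowest ratios were Mgl2, S100a4, Stard10, H1f0, Thbs1, Birc5, Pcolce, Alad, Gsta3, Pcbd1, Prdx6 and Spp2. S100a4, a calcium-binding protein of motile and monocyte-derived cells, was at 22.2 CPM in the members against 184 (log2 ratio -3.05), and -2.61 with at least 3 C1q UMIs. Thbs1, the secreted glycoprotein thrombospondin 1, was at 34.8 CPM against 219 (log2 ratio -2.65) and stood at -3.57 there. Birc5, which encodes the mitotic protein survivin, was at 22.2 CPM against 131. Gsta3, Alad, Pcolce and Prdx6 came within 2-fold with at least 3 C1q UMIs, at -0.42, -0.65, -0.38 and -0.55. Spp2, a protein secreted by hepatocytes, turned to 1.62 there, with -1.91 over all C1q macrophages.

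Markers of other cell types differed between the populations. Summed over 15 epithelial genes, all detected in both, the members had 2534 CPM and the C1q macrophages 5757 CPM. Per barcode the order was the other way, with a median of 2004 CPM in the members and 1769 CPM in the C1q macrophages, 98.5% and 94.4% of which had such a UMI. The highest barcode reached 12375 CPM among the members and 39959 CPM among the C1q macrophages. The neutrophil list stood at 111 CPM against 871, and Camp and Ngp were at 0 in both. The B and plasma cell list stood at 6.33 CPM against 149, with Igkc at 0 in both. T and NK genes summed to 6.33 CPM against 19.0, with Trac at 0 in both and the Cd3 genes fixed at 0 by the rule, and stellate and fibroblast genes to 31.7 against 96.0, with Lrat and Reln at 0 in both. Erythroid and platelet genes summed to 307 CPM against 557, with Alas2 at 0 in both. Only the endothelial list, at 459 CPM against 310, and the dendritic list, at 231 CPM against 138 with Xcr1 at 0 in both, were higher in the members. The endothelial list shares Cdh5 with the list of other Kupffer markers. Batf3 (0.83) was the 1 dendritic gene and Pf4 (-0.85) the 1 erythroid or platelet gene with enough UMIs for a log2 ratio. With at least 3 C1q UMIs Pf4 passed 2-fold lower, at -2.09. The part of other cell types in the gene ratios was not tested.

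**Figure D3:**
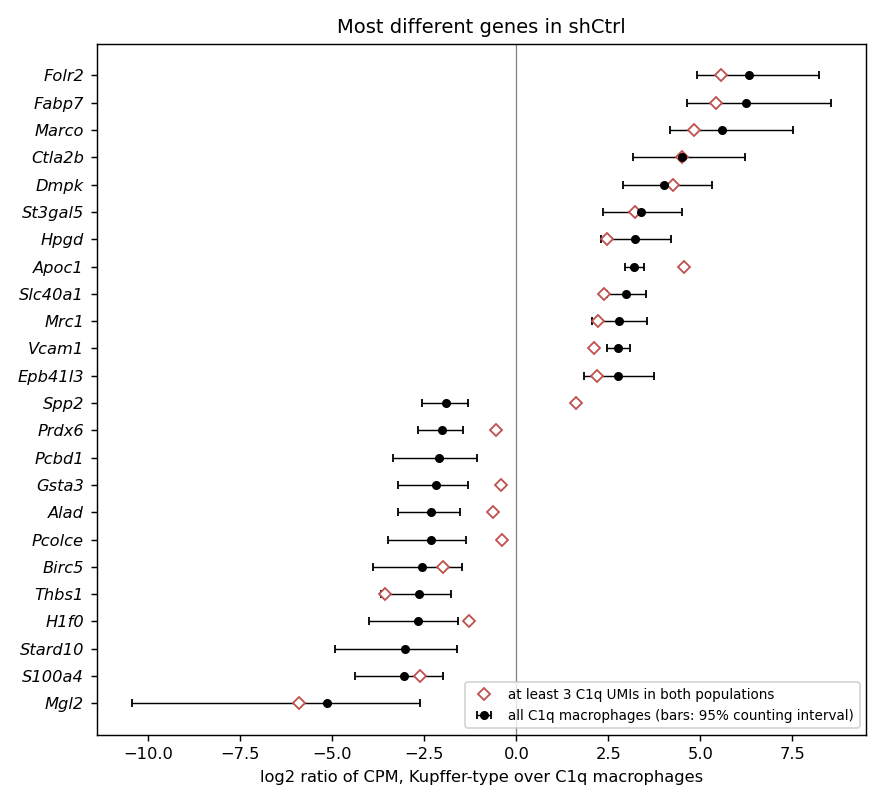
Log2 ratio of CPM, Kupffer-type over C1q macrophages in shCtrl (x axis), for the 12 highest and 12 lowest genes (y axis), with 95% counting intervals; open diamonds repeat it with at least 3 C1q UMIs in both populations and are missing for Stard10 and Pcbd1, which then had under 30 UMIs. The 12 upper genes stay right of 0, while Spp2 stands at -1.91 over all C1q macrophages and at 1.62 with the stricter limit.

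Of 15 other Kupffer marker genes, 9 had enough UMIs and all 9 were at least 2-fold higher in the shCtrl members, with a median log2 ratio of 4.02, against 9.82% of all genes. With at least 3 C1q UMIs 7 of 8 were, Clec1b falling to 0.96 and Timd4 having too few UMIs. The choice of members by co-expressed markers bears on these counts. Dmpk was at 130 CPM against 8.0 (log2 ratio 4.02). Il18bp was at 329 CPM against 64.0 (2.36). Adgre1 was at 231 CPM against 66.0 (1.81). Timd4 was at 85.5 CPM against 3.0 (4.83). Below the limit of 30 UMIs, C6, a component of the membrane attack complex, had 24 UMIs against 2, and Cdh5 had 21 against 6.

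Of 15 regulators of macrophage identity, 12 were measured, 6 were at least 2-fold higher and 0 lower, with a median of 1.08, and 4 of 11 were higher with at least 3 C1q UMIs. Nr1h3, which encodes LXRα, was at 355 CPM against 98.0 (1.86, 1.45 to 2.26). Id3 was at 678 CPM against 206 (1.72). Rxra, the partner of LXRα, had 21 UMIs against 13, or 66.5 CPM against 13 (2.36), too few at the stricter limit. Spic, needed for iron-recycling macrophages, was at 143 CPM against 35.0 (2.03), but this came from members with 1 or 2 selecting genes: in those with all 3 it was -0.085. Id1 was at 247 CPM against 197 (0.33), and 1.66 with at least 3 C1q UMIs.

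Lipid genes leaned upwards, with 7 of 16 measured at least 2-fold higher and 0 lower (median 0.90), and 7 of 15 higher with at least 3 C1q UMIs. Apoc1 was at 1498 CPM against 162 (3.21, 2.95 to 3.48), and 4.54 with at least 3 C1q UMIs. Abcg1 and Abca1, the cholesterol exporters, stood at log2 ratios of 2.08 and 1.45, and Cd36, a receptor for oxidised lipid, at 1.76. Lipa, the lysosomal cholesterol ester hydrolase, stood at 1.69 and Pltp, a lipid transfer protein, at 1.44, then 0.86. Apoe, at 12657 CPM against 8268, stayed under 2-fold (0.61).

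Of 13 measured iron and heme genes, 3 were at least 2-fold higher and 1 lower (list median 0.57), against 9.82% and 10.5% of all genes. The lower one was the heme carrier Hpx at -1.45 (0.29 with at least 3 C1q UMIs). At that limit 4 of 12 genes were higher and 0 lower. Slc40a1 was at 348 CPM against 44.0 (2.99, 2.47 to 3.52). Hmox1, which opens the heme ring, was at 491 CPM against 149 (1.72), and Ncoa4, the receptor that sends ferritin to lysosomes, was at 101.4 against 27.0 (1.91). Fth1, the ferritin heavy chain, was not higher, at 7710 CPM against 10302 (-0.42). 

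The complement genes were split, with 3 of 8 measured at least 2-fold higher, 0 lower and a median of -0.06. At the stricter C1q limit 2 of 7 were higher and 3 lower. Cfp, which encodes the alternative-pathway stabiliser properdin, was at 922 CPM against 263 (1.81). Cfb, the protease factor B of the same pathway, was at 72.9 CPM against 139 (-0.93) and passed 2-fold lower with at least 3 C1q UMIs, at -1.33. C4b had 19 UMIs against 5.

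Receptors for scavenging and for dead cells had 9 of 15 measured members at least 2-fold higher and 0 lower (median 1.18). With at least 3 C1q UMIs 5 of 11 were higher. Some of these receptors also stand in other lists, so this count is not separate from theirs. Axl and Mertk, receptors that bridge to phosphatidylserine, were at 405 CPM against 140 (1.53) and 260 against 80.0 (1.70). Msr1, scavenger receptor A, stood at 1.14 and fell within 2-fold with at least 3 C1q UMIs, at 0.34. Among 6 Fc receptor genes, 1 was higher and 1 lower, against 9.82% and 10.5% of all genes. Fcgrt, the neonatal Fc receptor, stood at 1.44, and Fcgr2b, the inhibitory receptor for IgG, was at 38.0 CPM against 123 (-1.69).

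Of 17 lysosomal genes, 8 were at least 2-fold higher and 0 lower (median 0.68), but with at least 3 C1q UMIs 1 of 17 was. Ctsd, the protease cathepsin D, was the one that stayed, at 2445 CPM against 734 (1.74, then 1.20). Ctsb, cathepsin B, was at 2791 CPM against 1014 (1.46, then 0.76). Of 14 core macrophage genes, 4 were at least 2-fold higher (median 0.61), and with at least 3 C1q UMIs 3 were higher and 2 lower (median -0.15). Lyz2, lysozyme, was at 957 CPM against 1786 (-0.90, then -1.54).

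In the MHC class II list 1 of 7 measured genes passed 2-fold lower and 0 higher (median -0.60), a share near the 10.5% of all genes. With at least 3 C1q UMIs 5 of 7 were lower (median -1.24), against 4.84% of all genes at that limit. H2-DMa and H2-DMb1, parts of the peptide loader of class II, stood at 0.07 and -0.06 over all C1q macrophages. H2-Aa was at 2676 CPM against 4060 (-0.60, then -1.24). Cd74, the invariant chain, was at 6566 CPM against 9072 (-0.47, then -1.09). Of 13 MHC class I genes, 1 was higher, H2-T23 at 231 CPM against 100.0 (1.21), with a median of 0.39. That share was near the 9.82% of all genes. With at least 3 C1q UMIs 0 of 13 were higher, and H2-T23 stood at 0.75.

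Genes of monocyte-derived cells had 5 of 15 measured members at least 2-fold lower, against 10.5% of all genes, and 0 higher (median -0.76), and 3 of 13 lower with at least 3 C1q UMIs. Ccr2, the receptor that draws monocytes out of marrow, had 0 UMIs in the members and 34 in the C1q macrophages, at least 3.58-fold lower. Ly6c2, which marks classical monocytes, was at 15.8 CPM against 56.0 (-1.82), from 1 member barcode and with too few UMIs at the stricter limit. Lsp1, a leukocyte cytoskeleton protein, was at 31.7 CPM against 104 (-1.71). Fn1, fibronectin, was at 127 CPM against 389 (-1.62) but turned to 0.65 with at least 3 C1q UMIs.

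Cytokine and chemokine genes had 9 of 19 measured members at least 2-fold higher and 3 lower (median 0.99), with 6 of 18 higher and 3 lower at the stricter C1q limit. Ccl3 and Ccl4, chemokines that attract leukocytes, were at 222 CPM against 44.0 (2.33) and 1416 against 350.02 (2.02). Nfkbia, the inhibitor of NF-κB, was at 1346 CPM against 448 (1.59). Il10, which dampens macrophage activation, had 18 UMIs against 1, of which 38.9% came from 1 barcode. Il1rn, the interleukin 1 receptor antagonist, was at 19.0 CPM against 61.0 (-1.68).

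Of 16 interferon-induced genes 6 were at least 2-fold higher and 0 lower (median 0.83), and 2 of 15 were higher with at least 3 C1q UMIs. Irf7, a regulator of interferon genes, led them at 231 CPM against 38.0 (2.61). Cxcl9, a T cell attractant, was at 418 against 473 (-0.18). Of 10 checkpoint genes 3 were higher (median 0.78), Vsig4 among them, and 1 of 9 was higher and 1 lower with at least 3 C1q UMIs. Cd274, which encodes PD-L1, was at 120.4 CPM against 52.0 (1.21, and 0.59 with at least 3 C1q UMIs). Sirpa, the receptor for CD47, was at 564 CPM against 221 (1.35, then 0.69). Of 12 receptors for sinusoidal and cytokine signals 4 were higher (median 0.33), and 3 of 9 with at least 3 C1q UMIs, among them Csf1r at 722 CPM against 216 (1.74) and Tgfbr2 at 85.5 against 35.0 (1.29).

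Of 7 genes of alternative activation 1 was higher, Mrc1, and 2 were lower, Mgl2, whose reads may be shared with its close copy Clec10a, and Arg1. Arg1, which encodes arginase 1, had 9 UMIs against 68 (-1.25). Of 14 genes of lipid-associated macrophages 2 were higher, Ctsd and Ctsb, and 1 was lower (median 0.38). These counts were near the 9.82% and 10.5% of all genes. The lower one was Spp1, which encodes osteopontin, with 6 UMIs against 48 (-1.34). Of Ctsd and Ctsb only Ctsd stayed with at least 3 C1q UMIs. Detoxification genes had 2 of 9 higher and 3 lower (median 0.01), then 1 of 7 higher and 1 lower.

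Cell cycle genes had 7 of 14 at least 2-fold lower and 0 higher (median -0.97), with 2 of 11 lower once at least 3 C1q UMIs were required. Between depth-matched barcodes the median was -0.024. Stmn1, a tubulin-binding protein of dividing cells, was at 130 CPM against 281 (-1.11, then -1.07). Early response and heat shock genes had 7 of 15 higher and 0 lower (median 0.99), and 5 of 15 higher with at least 3 C1q UMIs. Jun was at 402 CPM against 121 (1.73) and Hspa1a at 998 against 429 (1.22, then 0.59), with reads of Hspa1a and Hspa1b possibly split between these near-identical genes. The 3 measured genes of the study's interest were all within 2-fold, and Srsf10 itself had 14 UMIs in the members and 43 in the C1q macrophages, or 44.3 CPM against 43.0 (0.04).

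**Figure D4:**
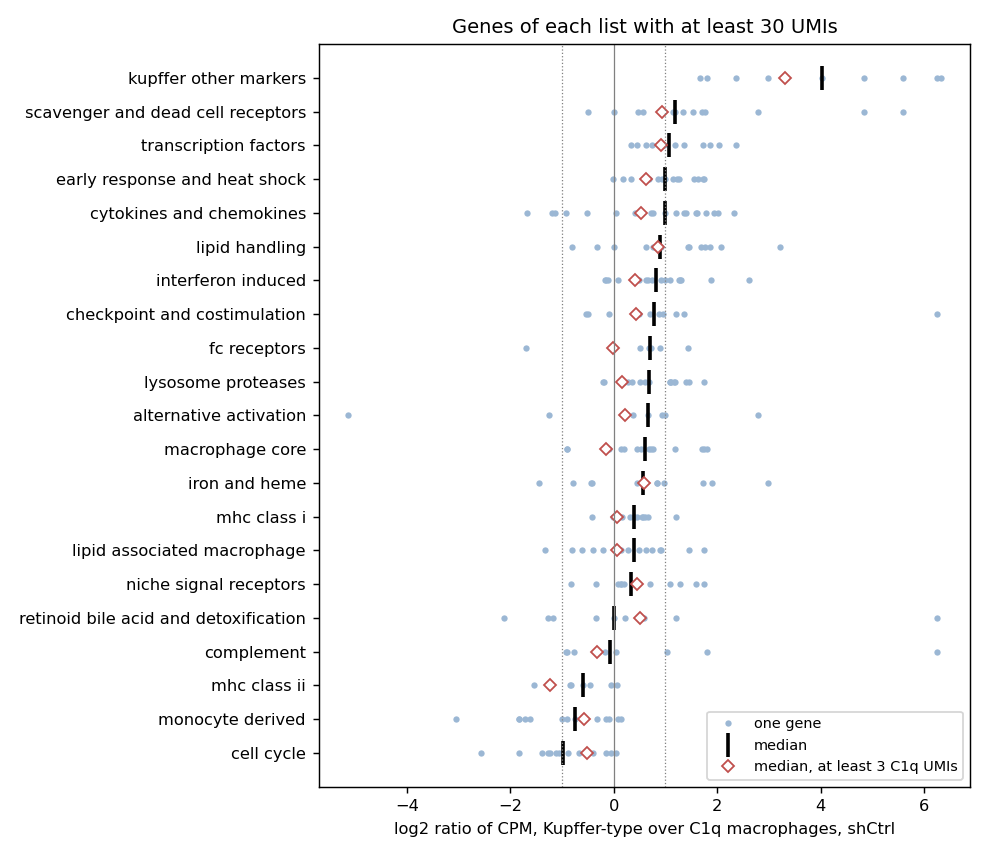
Log2 ratio of CPM, Kupffer-type over C1q macrophages in shCtrl (x axis), for every gene of each list with at least 30 UMIs (points), the list's median (bar) and its median with at least 3 C1q UMIs in both populations (diamond); dotted lines mark 2-fold. The other Kupffer markers have a median of 4.02, MHC class II -0.60 and cell cycle genes -0.97.

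Kupffer-type barcodes were scarcer in shSrsf10 than in shCtrl by every denominator used. They made up 0.231% (0.0927 to 0.474) of 3036 low-keratin barcodes in shSrsf10 and 6.25% (5.26 to 7.36) of 2143 in shCtrl, a difference of -6.02 percentage points (-7.13 to -5.04). Among C1q barcodes without CD3 they made up 4.40% (1.79 to 8.86) of 159 in shSrsf10 and 26.9% (23.1 to 31.0) of 498 in shCtrl, a difference of -22.5 points (-27.1 to -16.7). Of all barcodes that passed the gene and mitochondrial limits, they made up 0.0935% in shSrsf10 and 1.40% in shCtrl. C1q macrophages were scarcer too, at 4.84% of low-keratin barcodes in shSrsf10 and 14.9% in shCtrl.

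Median depth was 2124 UMIs in shSrsf10 and 1408 in shCtrl among low-keratin barcodes, and 2821 and 1867.5 among C1q barcodes. Among all barcodes passing it was 11558.5 UMIs in shSrsf10 and 12578 in shCtrl. The part of depth was tested only by thinning. When each barcode was thinned to 1000 UMIs before the rule was applied, an alternative added after the data were seen, 3 of 111 C1q barcodes (2.70%) qualified in shSrsf10 and 77 of 338 (22.8%) in shCtrl. Over all barcodes that passed the gene and mitochondrial limits, Cd5l had 60 UMIs in shSrsf10 and 726 in shCtrl. Clec4f had 22 in shSrsf10 and 478 in shCtrl. Vsig4 had 10 in shSrsf10 and 94 in shCtrl. The sort gate and the hepatocyte removal named in the labels can set such shares, and their part was not tested.

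**Figure D5:**
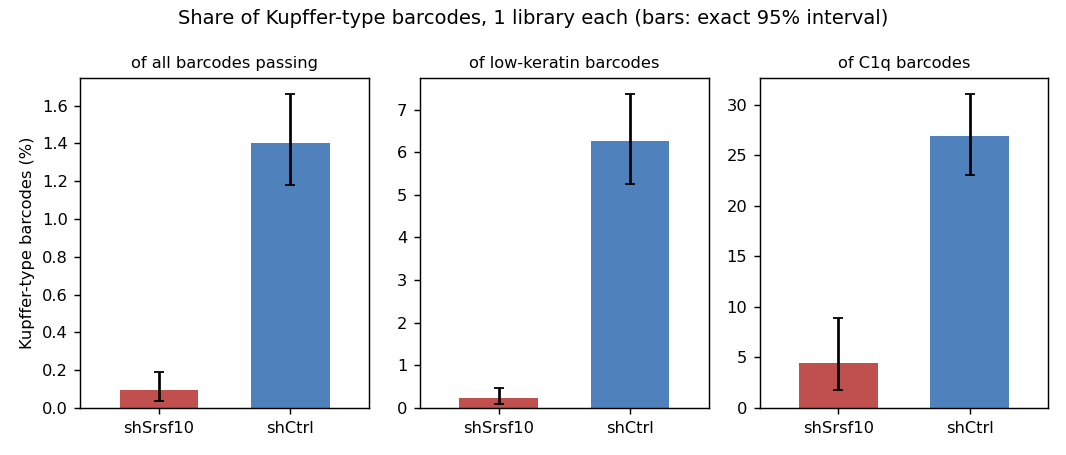
Share of Kupffer-type barcodes (%, y axes from 0) in shSrsf10 (left bars) and shCtrl (right bars), 1 library each, with exact Clopper-Pearson 95% bars, among all barcodes passing, low-keratin barcodes and C1q barcodes. The shSrsf10 share is lower in each panel, with 4.40% of C1q barcodes in shSrsf10 and 26.9% in shCtrl.

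The 7 shSrsf10 members were of different kinds. The first had 16 UMIs of Cd5l, 14 of Clec4f and 6 of Fcna among 2441, with 8 of Vsig4, 1 of Folr2 and 3 of Timd4. The second had 8, 7 and 4 UMIs of the selecting genes among 1182, with 1 of Folr2 and 2 of Marco. These were the only members of this library with all 3 genes.

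The third had 6 UMIs of Cd5l alone among 5585 and no other of these markers. The fourth had 2 of Cd5l, 1 of Fcna and 1 each of Vsig4, Folr2 and Timd4 among 1217, along with 58 UMIs of the neutrophil genes S100a8 and S100a9. The other 3, at 5432, 5735 and 13892 UMIs, each had 2 UMIs of Fcna and 0 of Cd5l, Clec4f, Vsig4, Folr2, Marco and Timd4. They carried C1q (134, 98 and 419 UMIs) and MHC class II (309, 134 and 469 UMIs). Every member of this library carried both, and C1q was required by the rule, so neither sets these 3 apart.

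Summed levels in the 7 shSrsf10 members therefore weigh a few barcodes heavily. Of the 7, 4 had 1 selecting gene, and these were the deepest, between 5432 and 13892 UMIs. In shCtrl 43 of 134 members had 1 selecting gene, and in those Id3 was lower and H2-Aa higher than with all 3. The libraries thus differed in the make-up of their members, and its part in the values below was not tested. Vsig4 was at 254 CPM (116 to 481) in shSrsf10 members and 228 CPM (178 to 287) in shCtrl members, with 88.9% of the shSrsf10 UMIs from 1 barcode. Folr2 was at 84.5 CPM in shSrsf10 members and 320 CPM in shCtrl members (log2 ratio -1.92, -4.22 to -0.33). Csf1r differed little, at 648 CPM in shSrsf10 members and 722 CPM in shCtrl members (-0.16, -0.84 to 0.47), and so did Cfp (0.33, -0.18 to 0.80).

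MHC class II and Lyz2 were higher in shSrsf10, in members and C1q macrophages alike. H2-Aa was at 7215 CPM in shSrsf10 members and 2676 CPM in shCtrl members (1.43, 1.22 to 1.63), and in C1q macrophages at 6343 CPM in shSrsf10 and 4060 CPM in shCtrl (0.64, 0.58 to 0.71). Of the H2-Aa UMIs in shSrsf10 members 39.5% came from 1 barcode. Lyz2 was at 4453 CPM in shSrsf10 members and 957 CPM in shCtrl members (2.22), with a log2 ratio of 0.79 in C1q macrophages. The difference between these ratios was not tested. Ccl8, a monocyte-attracting chemokine, stood at 2.64 in members and 1.48 in C1q macrophages.

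Id3 was lower in shSrsf10 members, at 113 CPM against 678 CPM in shCtrl members (-2.59, -4.48 to -1.21), and stood at -0.04 in C1q macrophages. Hspa1a was at 56.4 CPM in shSrsf10 members and 998 CPM in shCtrl members (-4.15), and -1.72 in C1q macrophages. Apoc1 was at 761 CPM in shSrsf10 members and 1498 CPM in shCtrl members (-0.98). In C1q macrophages Apoc1 stood at -2.27. S100a8 was at 930 CPM in shSrsf10 members and 41.2 CPM in shCtrl members, and 97.0% of the shSrsf10 UMIs came from the fourth barcode.

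Within shSrsf10, 2112 genes had enough UMIs in the 7 members and 147 C1q macrophages, of which 8.62% were at least 2-fold higher in the members and 15.9% at least 2-fold lower. The 4 measured genes among the other Kupffer markers were all higher. Of 13 lipid genes 6 were higher and 1 lower, and Apoc1 was at 761 CPM against 33.6 (4.50). Of 11 iron and heme genes 2 were higher and 1 lower, with Slc40a1 at 536 CPM against 67.2 (2.99, 2.11 to 3.83), as in shCtrl (2.99). Csf1r stood at 1.49, Ctsd at 1.87 and Cfp at 1.22.

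Several lists had medians on the other side of 0 from shCtrl, some of them close to 0. Of 17 interferon-induced genes 0 were higher and 7 lower (median -0.72), with Ifitm3, a restriction factor for virus entry, at 620.0 CPM in the members against 1796 (-1.53, -2.22 to -0.93). Of 9 regulators of identity 1 was higher and 3 lower (median -0.08), with Id3 at 113 CPM against 199.7 (-0.83, -2.73 to 0.57). Of 13 early response and heat shock genes 0 were higher and 2 lower (median -0.14), a share near the 15.9% of all genes. Of 15 genes of monocyte-derived cells 10 were lower and 1 higher (median -1.51), the same side as in shCtrl, and S100a4 had 0 UMIs in the members and 168 in the C1q macrophages. H2-Aa, at 7215 CPM against 6343 (0.19, -0.0032 to 0.37), did not show the lower level seen in shCtrl. These contrasts between libraries were not tested, nor was the part of the larger weight of members with 1 selecting gene in shSrsf10.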

How the data were processed

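The data are 10x droplet libraries of mouse liver tumour suspensions. The authors deposited raw UMI counts per gene and barcode for 32285 features, made with Cell Ranger 6.1.0 on mm10, per the submitters' processing notes. The labels name a 5' kit in one place and a 3' kit in another, and the barcodes have 17 letters. The libraries held 136419902 UMIs (shSrsf10) and 143327661 UMIs (shCtrl), and no barcode had under 500 UMIs.

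Members and gene lists were chosen with earlier results of these data known. UMIs were summed over the barcodes of a population within a library and given as CPM with exact Poisson intervals. Ratios had exact conditional binomial intervals, shares Clopper-Pearson intervals and differences of shares Newcombe intervals, all at 95%. Genes needed 30 UMIs over both populations, a gene at 0 was bounded by 3 counts over its population, and 2-fold was used for counts of genes. Named genes were the 12 highest and 12 lowest ratios in shCtrl with at least 100 CPM and UMIs in at least 10% of barcodes of the higher population, leaving out the selecting genes, unnamed and sex-linked genes, and those of haemoglobin, ribosomes, mitochondria and antigen receptors, plus listed genes by role. For 38 symbols with several gene IDs a name is ambiguous. Doublets were kept, and removing the highest Scrublet scores (0.8% per 1000 barcodes) is an alternative. The ratio intervals were tested on simulated Poisson counts without variation between barcodes. That test therefore does not cover UMIs concentrated in a few barcodes. Promoters came from RefSeq on GRCm38.p6. Python 3.11.15, numpy 2.4.6, scipy 1.17.1, pandas 2.3.3 and scanpy 1.11.5 were used.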

Additional observations from a re-analysis of the deposited data

Results flagged for a closer look

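In the shCtrl library, 37 of 7399 keratin-high barcodes (0.500%, 0.352 to 0.689) had at least 2 UMIs of Cd5l, Clec4f and Fcna, and 35 of them also had C1q. They stood outside every comparison because of their keratin. Their medians were 7134 UMIs, 9 C1q UMIs and 15 keratin UMIs, and the highest had 33 UMIs of the 3 genes. In shSrsf10 there were 3 of 4450 (0.0674%). Of the UMIs in shCtrl barcodes that passed the gene and mitochondrial limits, keratin-high barcodes held 18 of 94 for Vsig4 and 37 of 150 for Folr2. What these barcodes are was not tested.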

How the results depend on the processing

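No paired analysis was possible because there was 1 library per group, and for the same reason no replicate could be left out. Of the shares, counts and list medians tried under each alternative, 341 values stayed close to those reported and 48 moved; of single-gene ratios, 2920 stayed within the counting interval of the reported ratio, 641 left it on the same side of 0 or from a reported ratio under 2-fold, and 10 changed sign from a reported ratio of at least 2-fold. Counted without that limit, 187 of 3571 ratios changed sign, 177 of them reported at under 2-fold. With at least 3 UMIs of the selecting genes 4 shSrsf10 members were left, the shCtrl share was 5.13% of low-keratin and 22.1% of C1q barcodes, and the difference -5.00 points of low-keratin barcodes. With at least 2 of the genes 3 were left in shSrsf10, the shCtrl shares were 4.25% and 18.3% and the differences -4.15 and -16.4 points. With all 3 genes, added after the data were seen, there were 2 members in shSrsf10 (0.0659% and 1.26%) and 40 in shCtrl (1.87% and 8.03%), with differences of -1.80 and -6.77 points. Barcodes with at least 1000 UMIs gave 7.78% of low-keratin barcodes in shCtrl and -7.49 points, at least 3 C1q UMIs gave 33.0% of C1q barcodes and -27.2 points, thinning, added later, gave 22.8%, and keratin at 0 left 70 shCtrl members. The difference in share stayed negative under all of these.

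Genes at least 2-fold higher and lower numbered 131 and 151 of 2155 with keratin at 0, and 221 and 157 of 3242 with at least 3 C1q UMIs. They numbered 195 and 178 of 2793 between depth-matched barcodes, and 141 and 100 of 1538 among genes with at least 100 UMIs. Fewer genes than the 4615 reported were tested in all of these. With at least 1 UMI they numbered 4186 and 1382 of 13896, but there the floor of 3 counts matters. A gene with 0 UMIs in the members and a few in the C1q macrophages then counted as higher. The 4186 is therefore no measure of genes higher in the members. The median of the other Kupffer markers was 2.84 with keratin at 0, 3.32 with at least 3 C1q UMIs, 3.17 with all 3 genes, 2.98 with matched depth, 3.26 with a mean over barcodes, 2.36 at 100 UMIs and 3.40 without barcodes holding S100a8, S100a9, Jchain or Ighm, also added later. That of cytokines was 0.37 with keratin at 0. With at least 3 C1q UMIs the core macrophage, Fc receptor and MHC class II medians were -0.15, -0.0097 and -1.24. With all 3 genes the complement and MHC class II medians were 0.60 and -1.23, complement was 0.76 at 1 UMI, and cell cycle was -0.024 with matched depth. The median over all genes moved to -0.15 with all 3 genes and to 0.28 at 1 UMI, where medians carry the same floor.

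Reported ratios of at least 2-fold changed sign for Alb (0.25 with keratin at 0, 0.33 with at least 3 C1q UMIs), and with at least 3 C1q UMIs for Afp (0.13), Hpx (0.29), Ttr (0.96), Fn1 (0.65) and Spp2 (1.62). With at least 3 C1q UMIs 35 ratios reported at under 2-fold also changed sign, of which Fabp4 (-0.33, then 2.17) and C3ar1 (0.04, then -1.03) passed 2-fold on the other side. With all 3 genes signs changed from at least 2-fold for Egfl7 (0.14), Il18 (-0.000162) and Spic (-0.085). The cause was not tested. Depth limits shSrsf10 most, where 3 UMIs amount to 84.5 CPM over 7 members.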

Other observations

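The 44 shCtrl barcodes with C1q and a single UMI of the selecting genes had few UMIs of the markers the rule did not use. They had 0 UMIs of Vsig4, Marco and Timd4, and 4 of Folr2 (34.2 CPM). Vcam1 was at 693 CPM (551 to 862), Csf1r at 548 CPM and Slc40a1 at 197 CPM, all above the 128, 216 and 44.0 CPM of C1q macrophages with none of the 3 genes. H2-Aa was at 4434 CPM (4061 to 4833), near the 4060 CPM of those C1q macrophages. The Fcna-alone members themselves had Vcam1 at 985 CPM (795 to 1207), in 83.9% of barcodes, Csf1r at 741 CPM and H2-Aa at 3791 CPM. These groups were cut from the selecting genes after the values were seen, so the values are given as a description.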
